A study of Mus musculus with 28 samples.

Results

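A set of 34 genes that mark B, T and NK lymphoid cells was read in mouse haematopoietic cells with and without leukaemia oncogenes. They were taken by name from a fixed list: 6 encode parts of the B cell receptor or of its surrogate (Cd79a, Cd79b, Vpreb1, Vpreb2, Vpreb3 and Igll1), 3 act in V(D)J recombination (Dntt, Rag1 and Rag2), 7 regulate transcription in the B lineage (Ebf1, Pax5, Bach2, Pou2af1, Foxo1, Lef1 and Spib), 7 are B-lineage surface or signalling genes (Cd22, Cd72, Il7r, Blnk, Blk, Ms4a1 and Fcrla), 5 belong to the T lineage (Notch1, Gata3, Cd3e, Cd3g and Lck) and 6 to NK and cytotoxic cells (Il2rb, Klrd1, Gzma, Gzmb, Prf1 and Ccl5). All 34 are among the 35267 genes of one bulk RNA table and the 35429 genes of the other. The rule that lists them uses names and no measured value, but the genes were chosen with earlier results of these data known. All cells came from C57Bl/6 bone marrow sorted for c-Kit, a receptor of stem and progenitor cells. The first bulk table holds 2 libraries of c-Kit+ cells transduced by retrovirus with MOZ-TIF2, a fusion oncogene carrying a Ty1 tag, sorted for GFP and grown in medium with cytokines for 4 days. It also holds 2 libraries of c-Kit+ cells given an empty vector, sorted and cultured in the same way and called differentiated by the submitters, and 2 libraries of freshly isolated c-Kit+ cells with no vector and no culture. The second bulk table holds cell lines selected by 4 rounds of replating in methylcellulose: an EYA1+HOXA9 line (sorted for GFP and dTomato) treated with 5 µM benzarone or with DMSO, its solvent, for 72 hours, and a HOXA9 line (sorted for GFP) treated likewise, with 3 libraries for each of the 4 combinations. Single cells came from a MOZ-TIF2 line replated in methylcellulose and treated with 5 µM benzarone for 1, 3 or 5 days or with DMSO for 1 or 5 days, and the Ty1 tag was mapped by ChIP in such a line in 2 samples. The labels name 1 line for each oncogene combination and do not say whether replicates were separate cultures or animals, so the p-values measure the spread between these libraries, which may be technical.

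B lymphocytes form in marrow under the control of EBF1, PAX5 and FOXO1. RAG1 and RAG2 cut the immunoglobulin loci, terminal transferase (Dntt) adds bases at the joints, and the first heavy chain is tested at the surface with the surrogate light chain (Vpreb and Igll1 products) and the signalling pair CD79A and CD79B. T cell development depends on NOTCH1 and GATA3, and NK cells and killer T cells store perforin and granzymes. Benzarone is known as an inhibitor of the EYA phosphatases.

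Total estimated counts ran between 33010700 and 34463851 in MOZ-TIF2 libraries, 23656631 and 34260108 in differentiated libraries, 12397486 and 15550960 in fresh libraries, and 26340517 and 34606046 in the lines. Values are given as CPM, estimated counts per 1e6 counts of the library after scaling by TMM factors. Ptprc, the pan-leukocyte marker CD45, was present in every bulk library. Eya1 had 134 to 171 CPM in EYA1+HOXA9 cells with benzarone and 201 to 276 CPM with DMSO, against at most 1 count per HOXA9 library. Hoxa9 had 1237 to 1646 CPM in EYA1+HOXA9 libraries with benzarone and 314 to 506 CPM with DMSO. In HOXA9 libraries Hoxa9 had 180 to 241 CPM, so the lines differed in both genes. The part of Hoxa9 in the differences between lines and treatments was not tested. Kit itself had 40.9 and 28.9 CPM in MOZ-TIF2 libraries, 4266 and 4000 CPM in differentiated libraries, and 138 and 181 CPM in fresh libraries, so the label c-Kit+ describes the starting cells. In bulk samples a smaller number of cells of a type and less RNA per cell cannot be told apart.

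Cultured MOZ-TIF2 cells held little RNA of most of the 34 lymphoid genes, all of which were detected in fresh c-Kit+ cells. In MOZ-TIF2 cells against fresh cells 28 of the 34 genes were lower and 0 were higher by edgeR's quasi-likelihood test (Benjamini-Hochberg adjusted p at most 0.05 over 15224 genes). Of all genes tested 23.7% were called, 12.4% as lower and 11.3% as higher. The median log2 difference was −7.93 over the 34 genes and 4.11e-05 over all genes tested. Every one of the 34 passed the filter on low counts, many of them through fresh libraries alone, so a gene near 0 in cultured cells had to differ and these counts describe the list without supporting it. By role, all 6 receptor genes, all 3 recombination genes and all 7 regulators were lower, with 5 of 7 B surface and signalling genes, 2 of 5 T-lineage genes and 5 of 6 NK and cytotoxic genes. Cd22, Fcrla, Notch1, Cd3g, Lck and Ccl5 were not called. With either fresh library left out, the count was 14 of 34, against 2.31% of all genes without fresh replicate 1 and 2.79% without fresh replicate 2. The same 14 genes lost their call in both cases: Cd79b, Vpreb2, Rag2, Foxo1, Spib, Blk, Ms4a1, Gata3, Cd3e, Il2rb, Klrd1, Gzma, Gzmb and Prf1.

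**Figure D1:**
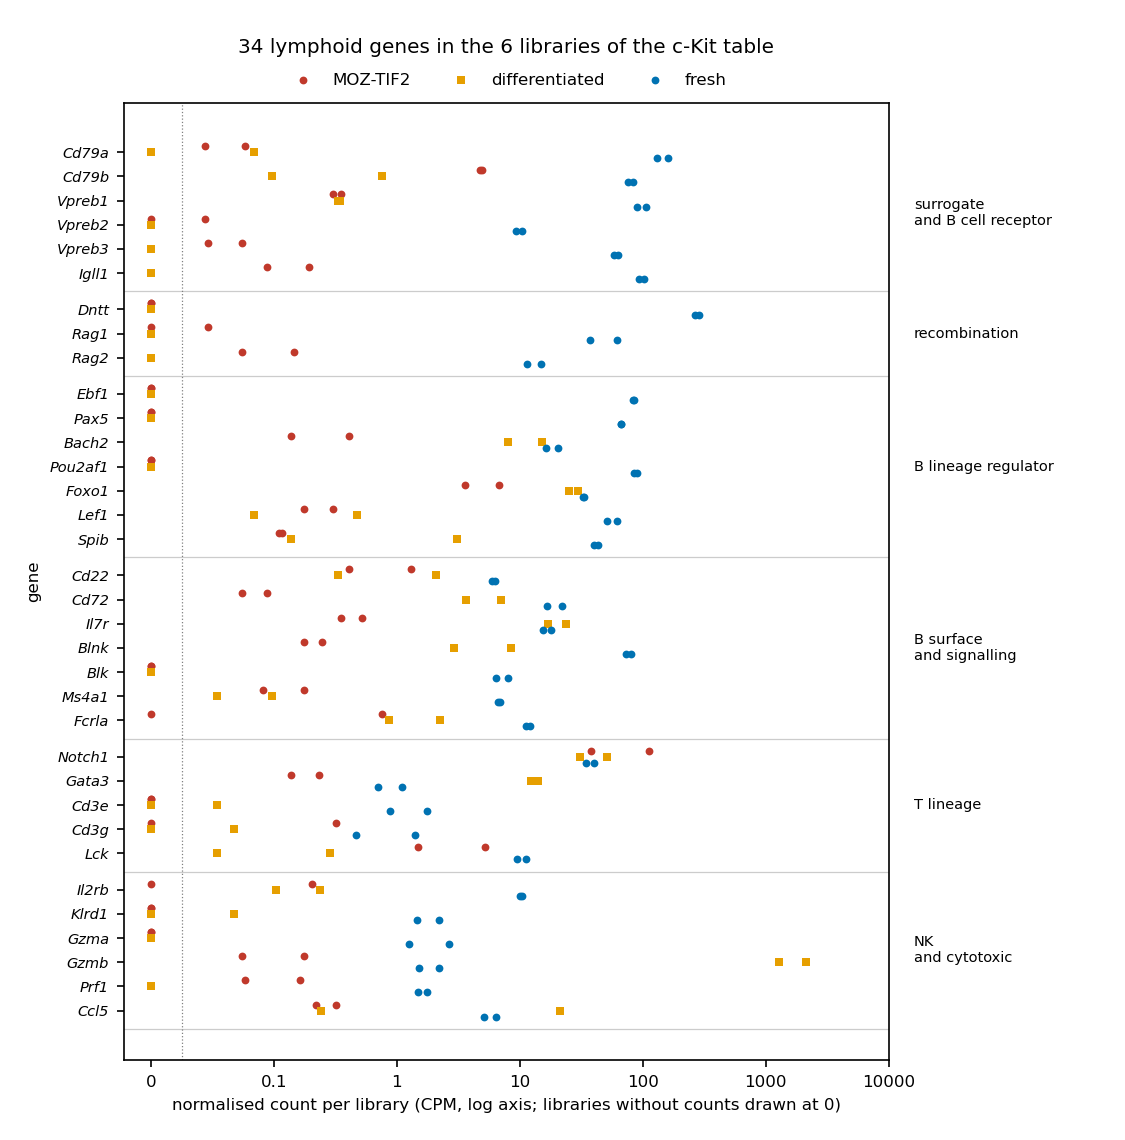
CPM (log axis, with libraries at 0 drawn at the mark 0) of the 34 lymphoid genes in the 2 MOZ-TIF2, 2 differentiated and 2 fresh c-Kit+ libraries, 1 point per library. Fresh libraries lie above both cultured groups for most B-lineage genes, while Gzmb lies highest in the differentiated libraries, at 2133 and 1281 CPM, and Notch1 lies between 31.0 and 112 CPM throughout.

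The empty-vector culture gave a similar count against fresh cells: 24 genes were lower and 2 were higher, with a median log2 difference of −6.41 against −0.03 over all genes. In that comparison 40.7% of all genes were called, 19.7% as lower and 21% as higher. Both comparisons use the same fresh libraries. With fresh replicate 1 left out 17 of the 34 genes and 7.78% of all genes were called, and with fresh replicate 2 left out 16 and 9.61%. Directly compared, MOZ-TIF2 cells had 3 genes higher than differentiated cells (Cd79b, Igll1 and Lck) and 7 lower (Bach2, Foxo1, Cd72, Il7r, Blnk, Gata3 and Gzmb), among 29.5% of all genes called, 13.3% higher and 16.2% lower. Fitted on those 2 groups alone, 15 of the 34 genes passed the filter, 0 were called higher and the same 7 lower, among 21.6% of all genes. There Cd79b and Lck missed the threshold and Igll1, like the other genes of the 19 left untested, did not pass the filter without the fresh libraries. In that fit Bach2, Cd72, Blnk, Gata3 and Gzmb passed the filter through the differentiated libraries alone, so they had to differ. Their calls there describe these genes without supporting a difference. Dntt, Ebf1, Pax5, Pou2af1, Blk and Gzma had no count in any of the 4 cultured libraries.

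The surrogate and B cell receptor genes were among the lowest in MOZ-TIF2 cells relative to fresh cells. Cd79a, a signalling chain of the B cell receptor, had 0.0273 and 0.0583 CPM in MOZ-TIF2 libraries (1 and 2 counts), 0 and 0.0691 CPM in differentiated libraries, and 161 and 131 CPM in fresh libraries. MOZ-TIF2 cells were lower than fresh cells by a factor of 3403 (95% counting interval 1164 to 16506, counting error only), with an adjusted p of 0.0006 by edgeR. Its partner Cd79b behaved differently, with 4.94 and 4.72 CPM in MOZ-TIF2 libraries, 0.0955 and 0.76 CPM in differentiated libraries, and 83.6 and 75.2 CPM in fresh libraries. Cd79b in MOZ-TIF2 cells was thus lower than in fresh cells (log2 difference −4.04 ± 0.59 SE, edgeR adjusted p = 0.00849) and higher than in differentiated cells (3.39 ± 0.64, edgeR adjusted p = 0.0122), with no overlap between the 3 groups. Fitted on the MOZ-TIF2 and differentiated libraries alone, the second difference had an edgeR adjusted p of 0.0677.

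Vpreb1, Vpreb2, Vpreb3 and Igll1 make up or resemble the surrogate light chain. Vpreb1 had 0.30 and 0.35 CPM in MOZ-TIF2 libraries, 0.334 and 0.345 CPM in differentiated libraries, and 106 and 89.6 CPM in fresh libraries. The cultured groups overlapped, and both lay far below fresh cells (log2 difference of MOZ-TIF2 cells −8.22 ± 0.29, edgeR adjusted p = 0.000587). Igll1 had 0.191 and 0.0875 CPM in MOZ-TIF2 libraries (7 and 3 counts), no count in differentiated libraries, and 103 and 92.8 CPM in fresh libraries. Against differentiated cells this was a difference of at least 2.34-fold upwards (floor of 3 counts over the group, edgeR adjusted p = 0.0259). The call rests on 10 counts and was lost without MOZ-TIF2 replicate 1 (edgeR adjusted p = 0.0731), differentiated replicate 1 (0.0672) or differentiated replicate 2 (0.0829). Vpreb3 had 0.0546 and 0.0292 CPM in MOZ-TIF2 libraries, no count in differentiated libraries, and 63.0 and 58.2 CPM in fresh libraries.

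Vpreb1 and Vpreb2 are near-identical copies, and the count tables may split their reads in ways that cannot be checked, so the 2 genes are uncertain individually. Vpreb2 had 0.0273 and 0 CPM in MOZ-TIF2 libraries, no count in differentiated libraries, and 10.5 and 9.31 CPM in fresh libraries. Their promoter windows show how close the copies are: of 156 aligned bases of the RefSeq windows (GRCm38.p6), 153 were identical (98.1%). A shared stretch of 106 bases is shown, with the 2 differing bases in capitals. In Vpreb1 it lies at chr16:16869256-16869361 on the minus strand and ends at the annotated start site, and in Vpreb2 it lies at chr16:17980315-17980420 on the plus strand and ends 144 bases before the start site that the window was taken from. That start site and the Vpreb2 stretch lie inside the annotated span of Vpreb2 (chr16:17979445-17981274).
Vpreb1: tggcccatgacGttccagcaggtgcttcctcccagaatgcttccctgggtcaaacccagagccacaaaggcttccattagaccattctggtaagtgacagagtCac
Vpreb2: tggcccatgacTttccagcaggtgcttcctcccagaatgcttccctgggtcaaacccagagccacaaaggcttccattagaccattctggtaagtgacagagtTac

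The recombination genes were at or near 0 in both cultured groups. Dntt had no count in MOZ-TIF2 or differentiated libraries and 287 and 267 CPM in fresh libraries. It was at least 6525-fold lower in MOZ-TIF2 cells and at least 4589-fold lower in differentiated cells than in fresh cells (floor of 3 counts over the group). Rag1 had 0 and 0.0292 CPM in MOZ-TIF2 libraries, no count in differentiated libraries, and 37.4 and 61.7 CPM in fresh libraries. Rag2 had 0.0546 and 0.146 CPM in MOZ-TIF2 libraries (2 and 5 counts), no count in differentiated libraries, and 11.4 and 14.9 CPM in fresh libraries. All 3 recombination genes were lower in each cultured group than in fresh cells, and none was called between MOZ-TIF2 and differentiated cells in the 3-group fit (Rag2 edgeR adjusted p = 0.0538). Rag2 overlaps the gene Iftap, and it is not given in the sources used here whether counting used strand.

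Of the 7 B-lineage regulators, Ebf1, Pax5 and Pou2af1 had no count in either culture, Lef1 and Spib had counts in every library at levels far below fresh cells, and Foxo1 and Bach2 were not called between differentiated and fresh cells. Ebf1, the factor that opens the B-lineage programme, had no count in MOZ-TIF2 or differentiated libraries and 84.3 and 82.6 CPM in fresh libraries. Pax5, which commits cells to that programme, likewise had no count in cultured libraries and 65.9 and 66.1 CPM in fresh libraries. Pou2af1, a B-cell coactivator, had no count in cultured libraries and 89.1 and 85.0 CPM in fresh libraries. In MOZ-TIF2 cells they were at least 1972-fold (Ebf1), 1561-fold (Pax5) and 2053-fold (Pou2af1) lower than in fresh cells. Lef1, a nuclear partner of Wnt signalling, had 0.30 and 0.175 CPM in MOZ-TIF2 libraries, 0.477 and 0.0691 CPM in differentiated libraries, and 51.3 and 61.2 CPM in fresh libraries. Spib, an Ets factor of B and plasmacytoid dendritic cells, had 0.109 and 0.117 CPM in MOZ-TIF2 libraries, 3.10 and 0.138 CPM in differentiated libraries, and 40.4 and 43.0 CPM in fresh libraries. The 2 differentiated libraries disagreed on Spib, and MOZ-TIF2 and differentiated cells were not called different for it (edgeR adjusted p = 0.0785).

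Foxo1 and Bach2 stood apart from the other regulators. Foxo1, a forkhead factor needed for Rag and Il7r expression in B progenitors, had 3.60 and 6.79 CPM in MOZ-TIF2 libraries, 29.8 and 25.0 CPM in differentiated libraries, and 33.4 and 32.6 CPM in fresh libraries. MOZ-TIF2 cells were lower than differentiated cells by a log2 difference of −2.40 ± 0.35 (edgeR adjusted p = 0.00576), while differentiated cells differed from fresh cells by −0.27 ± 0.34 (edgeR adjusted p = 0.548). Bach2, a repressor that favours B over myeloid fate, had 0.136 and 0.408 CPM in MOZ-TIF2 libraries, 8.02 and 15.2 CPM in differentiated libraries, and 16.4 and 20.6 CPM in fresh libraries. It was lower in MOZ-TIF2 than in differentiated cells (log2 difference −5.40 ± 0.66, edgeR adjusted p = 0.00303) and was not called between differentiated and fresh cells (−0.67 ± 0.53, edgeR adjusted p = 0.344).

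Several B surface and signalling genes had the same order, with MOZ-TIF2 cells lowest. Il7r, the receptor chain for the cytokine that sustains lymphoid progenitors, had 0.519 and 0.35 CPM in MOZ-TIF2 libraries, 17.0 and 23.9 CPM in differentiated libraries, and 15.5 and 18 CPM in fresh libraries. It was lower in MOZ-TIF2 than in differentiated cells by a log2 difference of −5.54 ± 0.41 (edgeR adjusted p = 0.000618), and differentiated and fresh libraries overlapped. Cd72, an inhibitory B cell receptor partner, had 0.0546 and 0.0875 CPM in MOZ-TIF2 libraries, 3.68 and 6.98 CPM in differentiated libraries, and 22.2 and 16.8 CPM in fresh libraries. Blnk, the adaptor that links the B cell receptor to its downstream enzymes, had 0.246 and 0.175 CPM in MOZ-TIF2 libraries, 2.91 and 8.43 CPM in differentiated libraries, and 79.5 and 73.3 CPM in fresh libraries. For Cd72 and Blnk all 3 comparisons passed the test and no groups overlapped. Cd72 was lower in MOZ-TIF2 than in differentiated cells by a log2 difference of −6.14 ± 0.60 (edgeR adjusted p = 0.00136), and Blnk by −4.72 ± 0.61 (edgeR adjusted p = 0.00362). The difference of Cd72 between differentiated and fresh cells (log2 difference −1.87 ± 0.45, edgeR adjusted p = 0.0210) lost its call without differentiated replicate 1 (−1.47, edgeR adjusted p = 0.0721) or either fresh library. Cd72 overlaps the gene Tesk1.

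The other B surface genes were low throughout the cultures. Blk, a Src-family kinase of B cells, had no count in cultured libraries and 8.03 and 6.40 CPM in fresh libraries, so that it was at least 168-fold lower in MOZ-TIF2 cells. Ms4a1, which encodes CD20, had 0.0819 and 0.175 CPM in MOZ-TIF2 libraries, 0.0955 and 0.0345 CPM in differentiated libraries, and 6.63 and 6.92 CPM in fresh libraries. Cd22, an inhibitory lectin of B cells, had 0.409 and 1.31 CPM in MOZ-TIF2 libraries, 0.334 and 2.07 CPM in differentiated libraries, and 6.27 and 5.93 CPM in fresh libraries. Cd22 and Fcrla, an intracellular Fc receptor-like protein, had no fresh library within the range of the MOZ-TIF2 libraries and yet missed the threshold (edgeR adjusted p = 0.0874 and 0.0607). Their MOZ-TIF2 replicates differed from each other, with Fcrla at 0 and 0.758 CPM.

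Promoter windows were searched for the core of the EBF1 motif, CCCNNGGG, and for the full motif, which is the core with a T before it and an A after it. Each reads the same on both strands, and every full motif is counted among the cores too. RefSeq windows of 250 bases before to 50 after a start site (GRCm38.p6) were matched for 28 of the 34 genes. The full motif was in the windows of Foxo1 and Cd22, 2 of 28, against 0.904% of all 32851 windows and 1.06% of 27025 genes. The core was in the windows of 5 of 28 (Foxo1, Cd22, Spib, Prf1 and Igll1), against 13.7% of all windows and 15.4% of genes. The 250 bases before the start site are shown for Foxo1 (chr3:52268087-52268336, plus strand) and Cd22 (chr7:30879029-30879278, minus strand) because they hold the full motif, 91 and 48 bases before the start, and for Igll1 (chr16:16863986-16864235, minus strand) as the surrogate light chain gene with the core, 231 bases before the start. The start site used for Cd22 lies inside the annotated span of the gene (chr7:30865404-30880342). Capitals mark the motif in Foxo1 and Cd22 and the core in Igll1.
Foxo1: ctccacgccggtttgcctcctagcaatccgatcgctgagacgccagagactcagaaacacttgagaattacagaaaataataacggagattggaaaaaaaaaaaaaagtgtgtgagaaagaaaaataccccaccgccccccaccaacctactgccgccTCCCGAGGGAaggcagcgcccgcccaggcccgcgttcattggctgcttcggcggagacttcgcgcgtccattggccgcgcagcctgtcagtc
Cd22: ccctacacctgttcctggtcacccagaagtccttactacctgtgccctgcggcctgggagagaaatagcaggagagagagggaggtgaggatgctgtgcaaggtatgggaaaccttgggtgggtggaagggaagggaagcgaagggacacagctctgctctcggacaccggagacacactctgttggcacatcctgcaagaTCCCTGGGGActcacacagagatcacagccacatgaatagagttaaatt
Igll1: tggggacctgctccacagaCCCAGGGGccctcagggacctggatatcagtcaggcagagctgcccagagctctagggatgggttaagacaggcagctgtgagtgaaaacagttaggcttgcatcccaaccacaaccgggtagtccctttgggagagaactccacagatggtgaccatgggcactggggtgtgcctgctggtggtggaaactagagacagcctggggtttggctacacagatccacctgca
These matches describe letters only. With Ebf1 at 0 in both cultures, Foxo1 had the levels given above in differentiated cells while Igll1 had no count there.

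The T-lineage genes did not move together. Notch1, the receptor that directs T cell fate, had 37.8 and 112 CPM in MOZ-TIF2 libraries, 50.8 and 31.0 CPM in differentiated libraries, and 34.2 and 40.1 CPM in fresh libraries. No comparison of Notch1 passed the test, and the groups overlapped. MOZ-TIF2 replicate 2 was the highest library: without replicate 1 Notch1 was called higher than in differentiated cells (log2 difference 1.46, edgeR adjusted p = 0.0314), and without replicate 2 the difference was −0.11. Gata3, a factor of T and innate lymphoid cells, had 0.136 and 0.233 CPM in MOZ-TIF2 libraries, 12.4 and 14.0 CPM in differentiated libraries, and 1.11 and 0.698 CPM in fresh libraries. It was higher in differentiated than in fresh cells (log2 difference 3.87 ± 0.52, edgeR adjusted p = 0.00383, and 3.58 with an adjusted p of 0.0503 without fresh replicate 2) and lower in MOZ-TIF2 than in differentiated cells (−6.13 ± 0.58, edgeR adjusted p = 0.00121).

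Lck, the kinase that starts T cell receptor signalling, had 5.16 and 1.49 CPM in MOZ-TIF2 libraries, 0.286 and 0.0345 CPM in differentiated libraries, and 11.2 and 9.54 CPM in fresh libraries. MOZ-TIF2 cells were higher than differentiated cells by a log2 difference of 4.42 ± 1.04 (edgeR adjusted p = 0.0244). That call was lost without MOZ-TIF2 replicate 1 (3.27, edgeR adjusted p = 0.0574), without differentiated replicate 2 (3.51, edgeR adjusted p = 0.0718) and in the fit of those 2 groups alone (4.42, edgeR adjusted p = 0.0659). The CD3 chains of the T cell receptor were scarce everywhere: Cd3e had no count in MOZ-TIF2 libraries, 0 and 0.0345 CPM in differentiated libraries and 1.77 and 0.872 CPM in fresh libraries, and Cd3g stayed at or under 1.40 CPM in all 6 libraries.

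The NK and cytotoxic genes were low in MOZ-TIF2 cells, and Gzmb was the exception in differentiated cells. Gzmb, a granzyme of killer lymphocytes that mouse mast cells also make, had 0.0546 and 0.175 CPM in MOZ-TIF2 libraries, 2133 and 1281 CPM in differentiated libraries, and 2.21 and 1.51 CPM in fresh libraries. It was higher in differentiated than in fresh cells by a log2 difference of 9.85 ± 0.60 (edgeR adjusted p = 0.000644) and lower in MOZ-TIF2 than in differentiated cells by −13.82 ± 0.70 (edgeR adjusted p = 0.000313). The other killing genes did not follow it: Gzma and Prf1 (perforin) had no count in differentiated libraries, and Klrd1, an NK receptor chain, had 1 count there. Gzma and Klrd1 also had no count in MOZ-TIF2 libraries, where Prf1 had 0.164 and 0.0583 CPM. In fresh libraries Gzma had 1.25 and 2.68 CPM, Prf1 1.47 and 1.74 CPM, and Klrd1 2.21 and 1.45 CPM. Gzma overlaps the gene Cdc20b.

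Il2rb, the shared chain of the receptors for interleukins that feed NK cells, had 0 and 0.204 CPM in MOZ-TIF2 libraries, 0.239 and 0.104 CPM in differentiated libraries, and 10.5 and 10.0 CPM in fresh libraries. It was lower in both cultures than in fresh cells with all libraries (log2 difference −6.60 in MOZ-TIF2 cells, edgeR adjusted p = 0.0175, and −5.90 in differentiated cells, edgeR adjusted p = 0.0137). The call of MOZ-TIF2 cells was lost without either fresh library (edgeR adjusted p = 0.122 and 0.103). The call of differentiated cells was lost without any one of the 4 libraries compared (edgeR adjusted p between 0.0527 and 0.0873). Ccl5, a chemokine of killer lymphocytes and macrophages, had 0.218 and 0.321 CPM in MOZ-TIF2 libraries, 21.2 and 0.242 CPM in differentiated libraries, and 6.34 and 5.12 CPM in fresh libraries. The differentiated replicates of Ccl5 lay on either side of the fresh libraries, and no comparison was called. Without differentiated replicate 1 its difference between differentiated and fresh cells was −4.53 on the log2 scale (edgeR adjusted p = 0.0190), against 0.90 with all libraries.

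Markers of other blood cells moved with these groups. The 18 mast and basophil genes summed to 1895 and 878 CPM in MOZ-TIF2 libraries. They summed to 73631 and 104366 CPM in differentiated libraries and 914 and 1031 CPM in fresh libraries. Srgn alone had 1832 and 827 CPM in MOZ-TIF2 libraries and 492 and 563 CPM in fresh libraries. In MOZ-TIF2 against fresh cells 9 of the 18 were lower and 0 higher, against 12.4% and 11.3% of all genes. In differentiated against fresh cells 15 of the 18 were higher, among them the mast cell protease gene Cma1 (16486 and 18040 CPM in differentiated libraries, against 0.369 and 0.407 CPM in fresh libraries). Erythroid genes summed to 429 and 334 CPM in MOZ-TIF2 libraries, 322 and 302 CPM in differentiated libraries, and 10012 and 6874 CPM in fresh libraries, and 15 of 16 were lower in each culture than in fresh cells. Primary granule genes summed to 22073 and 12075 CPM in MOZ-TIF2 libraries. They summed to 6330 and 7428 CPM in differentiated libraries and 9493 and 12284 CPM in fresh libraries. Most of the differentiated sums was Srgn, also in this list, with 5105 and 5034 CPM there. In differentiated against fresh cells 11 of 15 were lower and 1 higher, against 19.7% and 21% of all genes. Mpo had 0.0955 and 99.8 CPM in differentiated libraries and 4507 and 6176 CPM in fresh libraries. The part of these shifts in the lymphoid values, Gzmb and Gata3 included, was not tested.

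Other lymphoid genes from lists outside the 34 were read in the same comparisons. In MOZ-TIF2 against fresh cells 12.4% of all genes tested were lower and 11.3% higher. There 19 of 30 tested B-cell genes were lower and 2 higher, and of 25 T-cell genes 14 were lower and 0 higher. All 12 immunoglobulin loci were lower. Several of them, Igkc and Igha included, had no count in any cultured library. They passed the filter through fresh libraries alone, so they had to differ. Of 16 NK genes 12 were lower and 0 higher, and of 28 early lymphoid priming genes 10 were lower and 2 higher. Cd4 averaged 0.0146 ± 0.0206 CPM in MOZ-TIF2 cells and 14.9 ± 0.79 CPM in fresh cells (SD, n = 2 each), and Klrk1, an activating NK receptor, averaged 0 CPM in MOZ-TIF2 cells and 4.56 ± 0.53 CPM in fresh cells. Among the priming genes, Satb1, a chromatin organiser of early lymphoid cells, averaged 0.616 ± 0.171 CPM in MOZ-TIF2 cells and 43.6 ± 0.0018 CPM in fresh cells. The immunoglobulin heavy chain gene Ighm was an exception in degree: it averaged 92.7 ± 25.7 CPM in MOZ-TIF2 cells, 4.28 ± 0.59 CPM in differentiated cells and 924 ± 280 CPM in fresh cells, and was higher in MOZ-TIF2 than in differentiated cells (log2 difference 4.43 ± 0.37, edgeR adjusted p = 0.000872).

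In the direct comparison of MOZ-TIF2 with differentiated cells, 3 of 30 tested B-cell genes were higher and 7 lower. Of 25 T-cell genes 3 were higher and 6 lower, and of 16 NK genes 0 were higher and 6 lower. Of 28 priming genes 3 were higher and 14 lower. Of all genes tested in that comparison 13.3% were higher and 16.2% lower. Txk, a kinase of T cells, and Lat, an adaptor of T cells that mast cells also use, had the smallest p-values of the T-cell list: Txk averaged 0.127 ± 0.026 CPM in MOZ-TIF2 cells and 85.6 ± 16.2 CPM in differentiated cells, and Lat 1.00 ± 0.03 CPM in MOZ-TIF2 cells and 179 ± 27 CPM in differentiated cells. Akap12 (5.73 ± 0.43 CPM in MOZ-TIF2 cells, 0.175 ± 0.045 CPM in differentiated cells) and Sox4, a factor needed by early B cells (58.5 ± 43.1 CPM in MOZ-TIF2 cells, 1.66 ± 0.05 CPM in differentiated cells), were higher. In differentiated against fresh cells, 16 of the 30 B-cell genes were lower and 4 higher. Of the 28 priming genes 10 were higher and 6 lower. Of all genes tested in that comparison 19.7% were lower and 21% higher.

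Ty1 ChIP peaks, which mark the tagged MOZ-TIF2 protein, were read from the 2 deposited lists (GRCm38), and a peak present in both by at least 1 base was counted. Replicate 2 carries the catalogue number of the acetyl-histone antibody in its label, so its list may not be a Ty1 list. A shared peak lay within 5 kb of 2 of the 34 lymphoid genes, against 26.2% of 14498 tested genes with coordinates. The 2 genes were Cd79a, with a peak at chr7:24902752-24903001 that lies 894 bases from the gene, and Vpreb1, with a peak at chr16:16870802-16871601 that lies 1547 bases from the gene and 6817 bases from Igll1. The count was also 2 with the list of replicate 1 alone (28.9% of tested genes). It was 1 (Cd79a) at 1 kb, against 24.1% of tested genes, and 10 at 50 kb, against 44.7%. The nearest shared peak lay 38640 bases from Cd79b and 26611 bases from Lck, the genes higher in MOZ-TIF2 than in differentiated cells beside Igll1.

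Few of the lymphoid genes were expressed in the EYA1+HOXA9 and HOXA9 lines. Of the 34 genes 8 passed the filter on low counts: Cd79b, Vpreb1, Igll1, Foxo1, Il7r, Blnk, Notch1 and Lck. A further 8 genes (Dntt, Rag1, Pou2af1, Blk, Cd3e, Klrd1, Gzma and Gzmb) had no count in any of the 12 libraries. The remaining 18 had at most 58 counts over all 12 libraries and at most 0.473 CPM in any one. Of markers outside the list, the T cell receptor gene Trac and the NK receptor gene Ncr1 had no count in any of the 12 libraries, but other genes of those lists were expressed. The 30 listed T-cell genes, Thy1 and Tox among them, summed to 609 to 769 CPM in EYA1+HOXA9 libraries with benzarone and 192 to 269 CPM with DMSO, and to 120 to 136 CPM in HOXA9 libraries with benzarone and 126 to 131 CPM with DMSO. The 22 listed NK genes summed to 11.6 to 63.0 CPM over the 12 libraries.

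**Figure D2:**
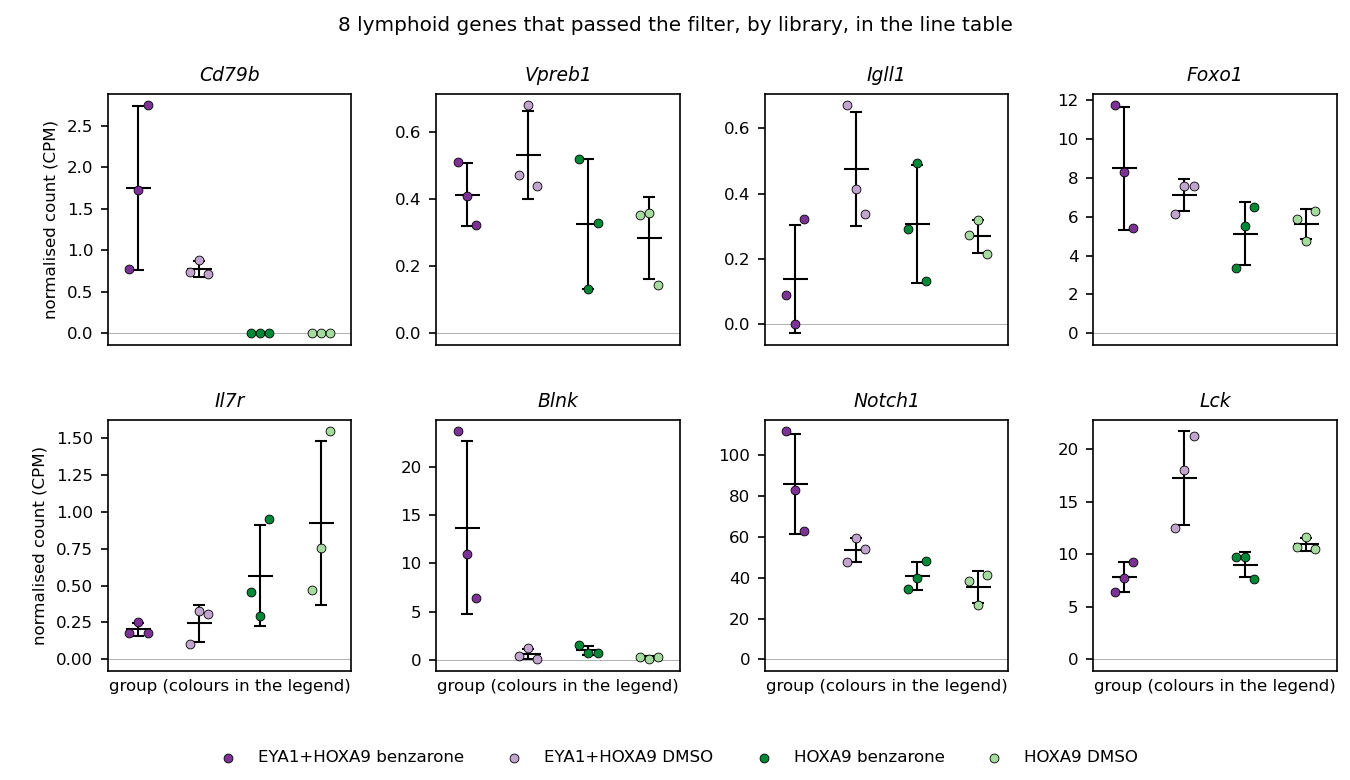
CPM of the 8 lymphoid genes that passed the filter in the lines, 1 point per library with the mean and SD (n = 3), for EYA1+HOXA9 with benzarone and with DMSO and HOXA9 with benzarone and with DMSO. Cd79b has counts in the 6 EYA1+HOXA9 libraries and is at 0 in the 6 HOXA9 libraries, and Blnk is highest in EYA1+HOXA9 cells with benzarone, at 23.7, 11.0 and 6.40 CPM.

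Cd79b had counts in the EYA1+HOXA9 line and none in the HOXA9 line. In DMSO it had 0.739, 0.886 and 0.71 CPM in EYA1+HOXA9 libraries (22, 30 and 21 counts) and no count in HOXA9 libraries. It was at least 20.5-fold higher in the EYA1+HOXA9 line (floor of 3 counts over the group, edgeR adjusted p = 0.00175). In benzarone it had 0.778, 1.73 and 2.75 CPM in EYA1+HOXA9 libraries and again no count in HOXA9 libraries, at least 51.8-fold higher (edgeR adjusted p = 0.000356). Cd79b passed the filter on low counts through the EYA1+HOXA9 libraries alone, so it had to differ between the lines. Its calls in DMSO and in benzarone, which enter the counts below, describe the gene without supporting a difference. Cd79a, its partner chain, had 0 to 4 counts in EYA1+HOXA9 libraries and 1 to 5 counts in HOXA9 libraries.

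In DMSO 3 of the 8 genes were called between EYA1+HOXA9 and HOXA9 cells, with 22.9% of all 13375 genes tested, 12.1% higher and 10.8% lower. Beside Cd79b, Lck was higher: it had 12.5, 18 and 21.3 CPM in EYA1+HOXA9 libraries and 10.7, 11.6 and 10.6 CPM in HOXA9 libraries (log2 difference 0.66 ± 0.20, edgeR adjusted p = 0.0347). Il7r was lower, with 0.101, 0.325 and 0.304 CPM in EYA1+HOXA9 libraries and 0.469, 0.755 and 1.54 CPM in HOXA9 libraries (−1.90 ± 0.58, edgeR adjusted p = 0.0345). In neither did the lines overlap. Both rest on single libraries: Lck was not called without EYA1+HOXA9 replicate 2 or 3 or any one HOXA9 library, and Il7r not without any one EYA1+HOXA9 library or HOXA9 replicate 2 or 3, all in DMSO. Without EYA1+HOXA9 replicate 2, without its replicate 3 or without HOXA9 replicate 2, 1 gene was called. Notch1 had 47.5, 59.3 and 53.9 CPM in EYA1+HOXA9 libraries and 38.4, 26.6 and 41.2 CPM in HOXA9 libraries, with no overlap, and missed the threshold (0.60 ± 0.21, edgeR adjusted p = 0.0635). DESeq2 called it (0.61, adjusted p = 0.0383).

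In benzarone 3 of the 8 genes were called between the lines, all higher in EYA1+HOXA9 cells, with 25.3% of all genes called, 15.2% higher and 10.1% lower. Beside Cd79b these were Blnk, with 23.7, 11.0 and 6.40 CPM in EYA1+HOXA9 libraries and 1.59, 0.756 and 0.756 CPM in HOXA9 libraries (log2 difference 3.72 ± 0.64, edgeR adjusted p = 0.00112), and Notch1, with 112, 83.0 and 63.1 CPM in EYA1+HOXA9 libraries and 34.3, 39.9 and 48.1 CPM in HOXA9 libraries (1.08 ± 0.22, edgeR adjusted p = 0.00304). Neither gene overlapped between the lines. Lck was not called there (7.84 ± 1.42 CPM in EYA1+HOXA9 cells and 9.03 ± 1.22 CPM in HOXA9 cells, SD, n = 3 each). Without HOXA9 replicate 2 in benzarone the count was 5, with Bach2 and Ccl5 added.

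Benzarone against DMSO within the EYA1+HOXA9 line called 3 of the 8 genes, with 29.4% of all genes called, 17% higher and 12.4% lower. Blnk rose to 23.7, 11.0 and 6.40 CPM with benzarone, against 0.471, 1.21 and 0.169 CPM with DMSO, a log2 difference of 4.44 ± 0.67 (edgeR adjusted p = 0.000608). The benzarone libraries differed among themselves more than 3-fold and none of them overlapped with the DMSO libraries. Lck fell to 6.46, 7.76 and 9.30 CPM with benzarone, against 12.5, 18 and 21.3 CPM with DMSO (log2 difference −1.14 ± 0.20, edgeR adjusted p = 0.00163), again without overlap.

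Notch1 had 112, 83.0 and 63.1 CPM with benzarone and 47.5, 59.3 and 53.9 CPM with DMSO in the EYA1+HOXA9 line (log2 difference 0.68 ± 0.21, edgeR adjusted p = 0.0308). All 3 benzarone libraries were above all 3 DMSO libraries, but the call was lost without benzarone replicate 1 (0.43, edgeR adjusted p = 0.175), without benzarone replicate 2 (0.71, edgeR adjusted p = 0.0642), without DMSO replicate 1 (0.60, edgeR adjusted p = 0.0903) and without DMSO replicate 3 (0.68, edgeR adjusted p = 0.0900). Cd79b had 0.778, 1.73 and 2.75 CPM with benzarone and 0.739, 0.886 and 0.71 CPM with DMSO and was not called (1.16 ± 0.49, edgeR adjusted p = 0.112). Bach2 did not pass the filter and had no count in the 3 benzarone libraries, against 6, 13 and 14 counts in the 3 DMSO libraries. Ccl5, also under the filter, had 14, 7 and 12 counts with benzarone and 0, 0 and 1 with DMSO. Without the filter on low counts both were called, so that 5 genes were called in all, and without benzarone replicate 3 the count was also 5.

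In the HOXA9 line 0 of the 8 genes and 0% of all genes were called between benzarone and DMSO by edgeR. At an unadjusted p under 0.05, 1 of the 8 (Blnk) and 232 of all 13375 genes stood out, and DESeq2 called 0 of the 8 and 0.105% of all genes. Same-numbered HOXA9 libraries varied together. With the replicate number as a block over all 12 libraries edgeR called 0 of the 8 genes and 0.0449% of all genes. That block gives both lines the same replicate effect, which same-numbered libraries of different lines did not share. It therefore does not test the HOXA9 pairing by itself. Blnk had 1.59, 0.756 and 0.756 CPM with benzarone and 0.352, 0.0795 and 0.359 CPM with DMSO, without overlap (log2 difference 1.94 ± 0.76, edgeR unadjusted p = 0.0248, adjusted p = 1). Lck had 9.70, 9.76 and 7.62 CPM with benzarone and 10.7, 11.6 and 10.6 CPM with DMSO (−0.28 ± 0.20), and Notch1 had 34.3, 39.9 and 48.1 CPM with benzarone and 38.4, 26.6 and 41.2 CPM with DMSO (0.20 ± 0.21).

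**Figure D3:**
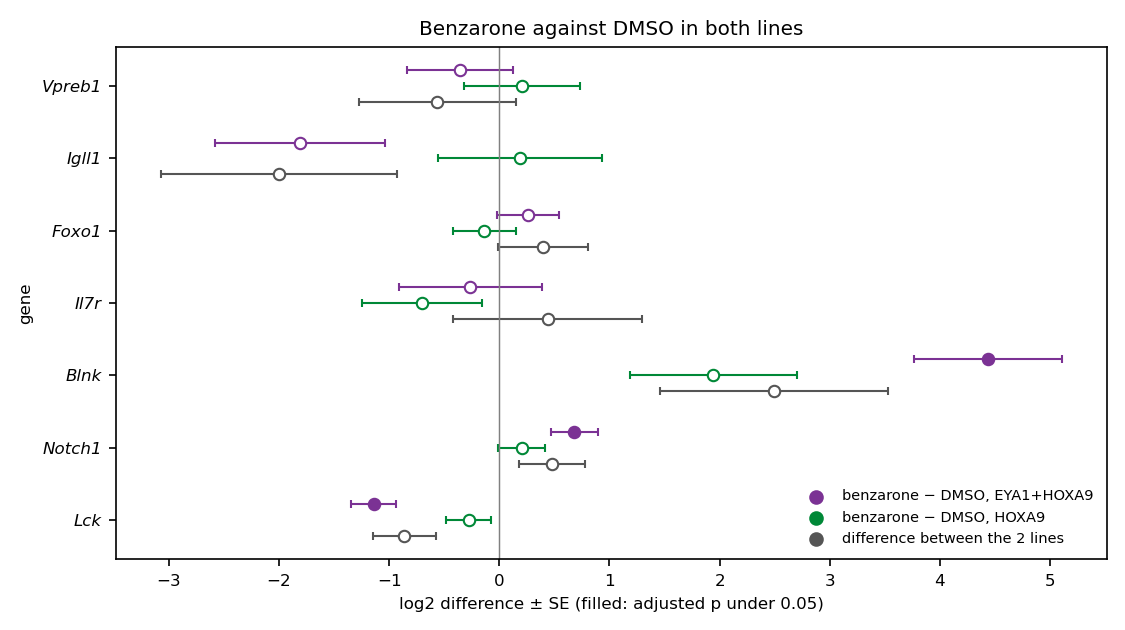
Log2 differences with their SE between benzarone and DMSO in the EYA1+HOXA9 line and in the HOXA9 line, and the difference between the lines, for 7 lymphoid genes (Cd79b is left out because it has no count in the HOXA9 line). Filled symbols passed the adjusted threshold of 0.05 in edgeR: Blnk, Notch1 and Lck do so in the EYA1+HOXA9 line, none in the HOXA9 line, and none for the difference between lines.

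Whether the lines responded differently to benzarone was tested as an interaction. It called 0 of the 8 genes by edgeR, against 7.54% of all genes (4.71% higher and 2.83% lower), with 2 of the 8 at an unadjusted p under 0.05. These were Blnk (log2 difference between the responses 2.49 ± 1.03, edgeR adjusted p = 0.169) and Lck (−0.86 ± 0.29, edgeR adjusted p = 0.0890). DESeq2 called Lck (−0.88, adjusted p = 0.0382), and so did edgeR without EYA1+HOXA9 DMSO replicate 1 (−1.05, adjusted p = 0.0274). By edgeR with all 12 libraries, the responses of the lines are thus not shown to differ for any of the 8 genes, and the tools differ on Lck. Cd79b could not be assessed because it has no count in the HOXA9 line.

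Other lymphoid genes of the EYA1+HOXA9 line were also called with benzarone against DMSO, a comparison in which 29.4% of all genes were called, 17% higher and 12.4% lower. There 7 of 16 tested B-cell genes were higher and 1 lower, 4 of 8 T-cell genes were higher and 1 lower, and 5 of 22 priming genes were higher and 2 lower. Of 3 NK genes 2 were lower, and the single immunoglobulin locus that passed the filter, Ighm, was higher. Thy1, a surface marker of T cells and other blood cells, averaged 408 ± 60.5 CPM with benzarone and 74.6 ± 34.4 CPM with DMSO (log2 difference 2.45 ± 0.28, edgeR adjusted p = 0.000153, SD over n = 3). Ighm averaged 109 ± 52.4 CPM with benzarone and 10.7 ± 5.72 CPM with DMSO, and the T-cell factor Tox 138 ± 14.6 CPM with benzarone and 68.5 ± 7.59 CPM with DMSO. Il18rap, an interleukin-18 receptor chain of NK cells, averaged 12.9 ± 3.08 CPM with benzarone and 50.5 ± 6.75 CPM with DMSO. In the HOXA9 line no gene of these lists was called.

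In DMSO, EYA1+HOXA9 cells had 3 of 16 B-cell genes, 3 of 8 T-cell genes and 1 of 3 NK genes higher than HOXA9 cells. Of the 22 priming genes 7 were higher and 2 lower, and Ighm was lower. Of all genes tested in that comparison 12.1% were higher and 10.8% lower. Mef2c, a factor of lymphoid priming, averaged 61.5 ± 7.40 CPM in EYA1+HOXA9 cells and 12.5 ± 0.34 CPM in HOXA9 cells (log2 difference 2.29 ± 0.17, edgeR adjusted p = 1.95e-06), while Ighm averaged 10.7 ± 5.72 CPM in EYA1+HOXA9 cells and 187 ± 15.4 CPM in HOXA9 cells. In benzarone 6 B-cell, 4 T-cell and 10 priming genes were higher in EYA1+HOXA9 cells. Ighm, 1 T-cell, 1 NK and 2 priming genes were lower. Of all genes tested between the lines in benzarone 15.2% were higher and 10.1% lower. Markers of mature myeloid cells moved too. The monocyte and macrophage genes summed to between 6976 and 9807 CPM in EYA1+HOXA9 libraries with benzarone, against 6117 to 7492 CPM with DMSO, with 9 of 14 tested called higher. Primary granule genes summed to 12232 to 14787 CPM with benzarone, against 13561 to 15249 CPM with DMSO, with 9 of 15 lower and 2 higher. Of all genes tested between benzarone and DMSO in the EYA1+HOXA9 line 17% were higher and 12.4% lower. The part of these cells in the values of Blnk, Notch1 and Lck was not tested.

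Single cells of the MOZ-TIF2 line gave the time course of benzarone in 5 conditions and 4 samples, with no replicate check. The benzarone and DMSO cells of day 5 belong to 1 sample and are told apart by a treatment name that the deposited metadata give for each cell. After 1 day there were 826 cells with benzarone (median 44762 UMIs) and 883 with DMSO (42565), after 3 days 829 with benzarone (44743), and after 5 days 1496 with benzarone (19763) and 1662 with DMSO (24576). UMIs, which tag single RNA molecules, were summed over the cells of a condition and given as CPM over the genes listed. The intervals cover counting error only. The 2 tables share 9 cell barcodes. The table of days 1 and 3 lists Cd79b and Notch1 alone among the 34 genes, and the table of day 5 lists 9: Cd79b, Vpreb1, Foxo1, Cd22, Il7r, Blnk, Notch1, Lck and Ccl5. No cell types were separated, so there is no cell type lacking these genes in which free RNA could be gauged.

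Notch1 was higher with benzarone than with DMSO, by little after 1 day and by more after 5 days. After 1 day Notch1 had 14.4 CPM with benzarone and 12.1 CPM with DMSO (ratio 1.19, 95% interval 1.05 to 1.35). With benzarone after 3 days it had 20.2 CPM, against 14.4 CPM after 1 day (ratio 1.41, 1.26 to 1.57). After 5 days it had 64.8 CPM with benzarone and 10.5 CPM with DMSO (ratio 6.20, 5.59 to 6.89), and a Notch1 UMI was seen in 58.8% of cells with benzarone and 20.3% with DMSO, although the cells with benzarone were the shallower ones. Thinned to 5000 UMIs per cell, with 0 cells left out as too shallow, the share of cells with a Notch1 UMI was 27.1% with benzarone and 4.87% with DMSO. At least 2-fold differences were seen in 0.413% of genes after 1 day, in 2.01% between days 3 and 1 with benzarone and in 30.5% after 5 days (16.7% higher and 13.7% lower with benzarone).

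**Figure D4:**
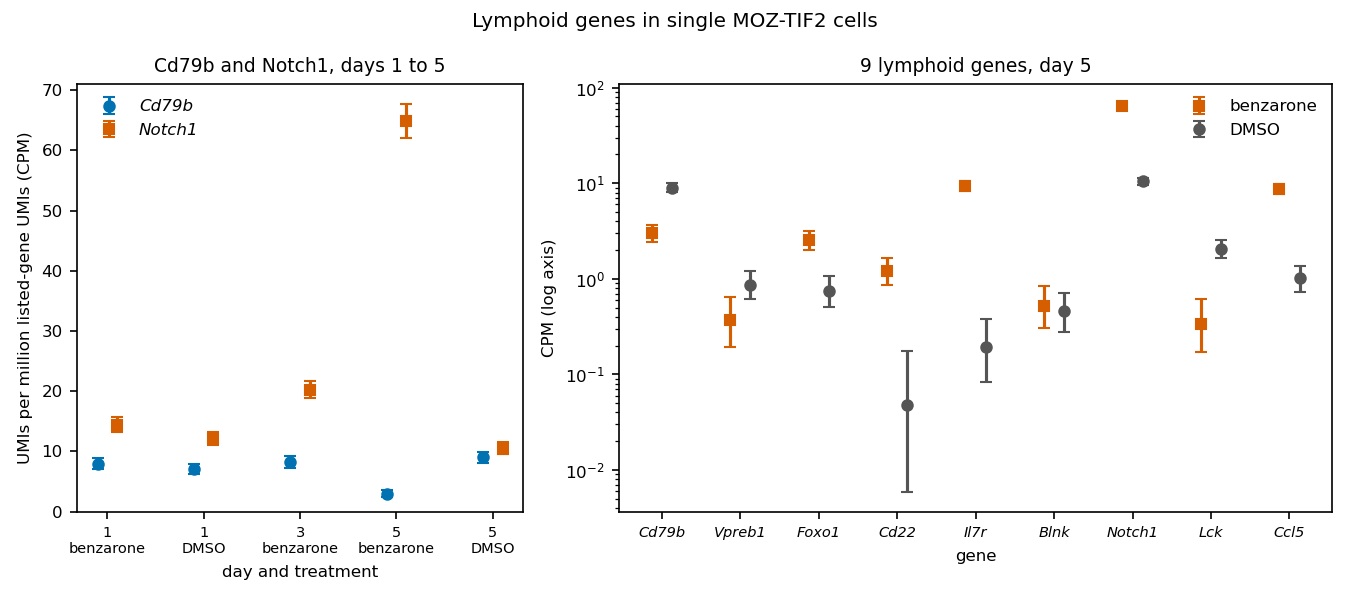
CPM with exact 95% Poisson intervals (counting error only) in single cells of the MOZ-TIF2 line, on a linear axis in the left panel and a log axis in the right panel. The left panel shows Cd79b and Notch1 after 1, 3 and 5 days with benzarone and 1 and 5 days with DMSO, and the right panel shows the 9 lymphoid genes of the day 5 table, where Notch1 reaches 64.8 CPM with benzarone against 10.5 CPM with DMSO and Cd79b 3.00 CPM with benzarone against 9.01 CPM with DMSO.

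Cd79b moved the other way and later. After 1 day it had 7.88 CPM with benzarone and 7.01 CPM with DMSO (ratio 1.13, 0.951 to 1.33). After 3 days with benzarone it had 8.19 CPM, against 7.88 CPM after 1 day (ratio 1.04, 0.883 to 1.22). After 5 days it had 3.00 CPM with benzarone and 9.01 CPM with DMSO (ratio 0.333, 0.263 to 0.417). Its UMIs were in 5.61% of cells with benzarone and 17.4% with DMSO on that day. Lck also was lower after 5 days, with 0.34 CPM with benzarone and 2.05 CPM with DMSO (ratio 0.166, 0.0799 to 0.312), and Vpreb1 had 0.371 CPM with benzarone and 0.867 CPM with DMSO (12 and 36 UMIs, ratio 0.428, 0.203 to 0.841).

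Il7r, Cd22 and Foxo1 were higher after 5 days of benzarone. Il7r had 9.33 CPM with benzarone and 0.193 CPM with DMSO (302 and 8 UMIs, ratio 48.4, 24.3 to 113), found in 155 cells with benzarone and 8 cells with DMSO. Cd22 had 1.21 CPM with benzarone and 0.0482 CPM with DMSO (39 and 2 UMIs, ratio 25.0, 6.48 to 214). Every gene listed for day 5 had at least 20 UMIs over both conditions. Il7r and Cd22 reached that through benzarone cells alone, and Lck (11 and 85 UMIs) and Vpreb1 (12 and 36) through DMSO cells alone. For these genes the direction could follow from the listing, so their ratios describe them without supporting a difference. Foxo1 had 2.53 CPM with benzarone and 0.747 CPM with DMSO (ratio 3.39, 2.22 to 5.31). Blnk, named here for its rise in the EYA1+HOXA9 line after its values were seen, had 0.525 CPM with benzarone and 0.458 CPM with DMSO (17 and 19 UMIs, ratio 1.15, 0.56 to 2.33). Ccl5 had 8.75 CPM with benzarone and 1.01 CPM with DMSO, but 214 of its 283 UMIs with benzarone came from 1 cell. Without the cell highest in Ccl5 in each condition the values were 2.13 CPM with benzarone and 0.675 CPM with DMSO. Of the 9 genes 6 had a ratio above 1, Blnk and Ccl5 among them, and 5 when cells were thinned to 5000 UMIs, with 45.0% of all 11662 genes above 1 without thinning. With so few genes nothing is read from that count.

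The 155 cells with an Il7r UMI after 5 days of benzarone were set beside the 1341 without one in the same condition, as a description. Their median depth was 26123 UMIs, against 19234 UMIs in cells without an Il7r UMI. Cells with an Il7r UMI had 3.02 CPM of Cd22, 4.87 CPM of Foxo1 and 57.1 CPM of Notch1, against 0.927, 2.17 and 66.0 CPM in cells without one. Cells with an Il7r UMI had 2367 CPM of Arg1, an arginase of macrophages, against 1108 CPM in cells without one. For Elane, the neutrophil elastase of primary granules, the values were 9.74 CPM with an Il7r UMI and 57.5 CPM without. Whole marker lists differed by less than these 2 genes. The 14 monocyte and macrophage genes summed to 23474 CPM in cells with an Il7r UMI and 20102 CPM in cells without one. The 15 primary granule genes summed to 1867 CPM in cells with an Il7r UMI and 3494 CPM in cells without one.

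Myeloid markers moved with the lymphoid genes after 5 days. The 14 listed monocyte and macrophage genes summed to 20551 CPM with benzarone and 1272 CPM with DMSO, and the 15 primary granule genes to 3277 CPM with benzarone and 13113 CPM with DMSO. The 24 listed early lymphoid priming genes summed to 1644 CPM with benzarone and 713 CPM with DMSO. Much of the benzarone sum came from Cd53 and Ly6a. Cd53 had 757 CPM in benzarone cells with an Il7r UMI and 617 CPM in those without one, and Ly6a 526 and 404 CPM. The sum is thus not a measure of the list as a whole. The 20 listed B-cell genes summed to 806 CPM with benzarone and 707 CPM with DMSO. The 9 listed T-cell genes summed to 35 CPM with benzarone and 33.6 CPM with DMSO, and 2 listed NK genes to 15.9 CPM with benzarone and 60.0 CPM with DMSO. No immunoglobulin locus is in the day 5 table. The part of these shifts in the values of Il7r, Notch1 and Cd79b was not tested.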

How the data were processed

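The authors deposited estimated counts per gene for the bulk RNA (poly(A), strand-specific kit, per the labels' protocols), whole UMI counts per gene and cell for part of the genes, and Ty1 peak intervals without scores. Salmon 0.13.0, Cell Ranger 3.0.0, Bowtie2 and GRCm38 are named in the submitters' processing notes, without roles, and the peak caller is not given in the sources used here. Estimated counts were rounded and tested over whole tables with edgeR 4.0.16 in R 4.3.3 (filterByExpr, TMM, all groups of a table in 1 fit, two-sided, Benjamini-Hochberg, threshold 0.05), checked on simulated data, with DESeq2 1.42.0 as an alternative. SEs are approximate, from the F statistic. UMIs were summed per condition and not tested, with no doublet caller, no clustering and no cell filter. Promoters came from RefSeq tables. The genes and lists were chosen with earlier results of these data known. Values are printed for genes called in some comparison, for single-cell genes with at least 20 UMIs, and for up to 3 genes with the smallest p per further lymphoid list. Same-numbered HOXA9 libraries deviated together (r = 0.279, 0.300 and 0.550). The block fit printed for that pair was made over both lines. Replicates of every group differed beyond sampling noise. Some genes of the further lists are not reported here. The acetyl-histone ChIP and the input were not analysed here. Library totals are given with the results. The alternatives were other scaling, no filter, fewer groups in the fit, the replicate block and leaving out each library in turn.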

Additional observations from a re-analysis of the deposited data

Results flagged for a closer look

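By the interaction test of edgeR, the response to benzarone differed between the EYA1+HOXA9 and HOXA9 lines in some lymphoid genes outside the 34. Of these 8 are given. The test called 2 of 16 B-cell genes and the 1 immunoglobulin locus tested as higher. Of 8 T-cell genes 3 were higher and 1 lower, of 3 NK genes 2 were lower, and of 22 priming genes 0 were called. Of all genes 7.54% were called, 4.71% higher and 2.83% lower. The log2 difference between the responses was positive for Akap12 (3.60, edgeR adjusted p = 0.0111), Ighm (2.95, 0.00834), Thy1 (2.71, 0.00449), Cd180 (1.52, 0.0347) and Tox (1.09, 0.00399), where a second value is the edgeR adjusted p. It was negative for Nkg7 (−3.46, edgeR adjusted p = 0.0273), Il18rap (−1.88, 0.0305) and Ubash3a (−1.02, 0.0126). Akap12 averaged 36.1 ± 15.9 CPM with benzarone and 2.86 ± 2.39 CPM with DMSO in EYA1+HOXA9 cells (SD, n = 3 each). In EYA1+HOXA9 cells Nkg7, a granule gene of NK cells, averaged 0.126 ± 0.054 CPM with benzarone and 1.76 ± 0.073 CPM with DMSO.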

How the results depend on the processing

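With all libraries the calls were 28 in MOZ-TIF2 against fresh cells, 26 in differentiated against fresh cells and 10 in MOZ-TIF2 against differentiated cells. Leaving out 1 library gave 14 to 28, 16 to 27 and 9 to 12 (14 in the first and 17 or 16 in the second without fresh replicate 1 or 2), where the lone sample is assumed to vary like the other groups. Between the lines leaving out 1 library gave 1 to 2 calls in DMSO and 3 to 5 in benzarone, against 3 each with all libraries. For benzarone in the EYA1+HOXA9 line it gave 3 to 5, for the interaction 0 to 1, and for benzarone in the HOXA9 line 0 throughout. Without the filter on low counts benzarone in the EYA1+HOXA9 line gave 5 calls and MOZ-TIF2 against differentiated cells 13, with Rag2, Spib and Ccl5 added. DESeq2 gave 1 call for the interaction. Shared Ty1 peaks were near 1 gene at 1 kb and 10 at 50 kb. With the replicate number as a block MOZ-TIF2 against fresh cells gave 24 calls (without Gata3, Cd3e, Gzma and Prf1), with 13.8% of all genes called against 23.7%, and changed no other count. Outside the HOXA9 pair the numbers do not pair libraries (r between same-numbered libraries −0.248 to 0.172). Signs turned in 4 cases, none of them called with all libraries: in MOZ-TIF2 against differentiated cells, the log2 difference without each library ranged from −5.01 (MOZ-TIF2 replicate 2) to 0.29 (MOZ-TIF2 replicate 1) for Il2rb, from −0.11 (replicate 2) to 1.46 (replicate 1) for Notch1 and from −6.28 (differentiated replicate 2) to 0.14 (differentiated replicate 1) for Ccl5, and in differentiated against fresh cells from −4.53 (differentiated replicate 1) to 1.89 (differentiated replicate 2) for Ccl5. The causes were not tested. A count of 0 in both MOZ-TIF2 libraries allows up to 0.0423 CPM, and 0 in both differentiated libraries up to 0.0601 CPM, for counting error only.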
